A study of Apeltes quadracus with 21 samples.

Results

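The last dorsal spine (DSL) was compared with the first dorsal spine (DS1) of the same fish across 31532 gene models of *Apeltes quadracus*, the fourspine stickleback. The comparison used 6 of the 21 libraries analysed here, DSL and DS1 of each of 3 fish, matched by the replicate number, which stands for 1 fish. The fish were lab-raised fry of the Louisbourg population at the fin fold stage (stage 31). All had 4 dorsal spines and were L/L at *HOXDB*, L being the haplotype that goes with low spine number, so no other genotype enters here. DS1 is the spine nearest the head and DSL the spine in front of the dorsal fin, with the spines DS2 and DS3 between them in that order. The other libraries of these fish came from DS2, DS3, a blank pterygiophore (Pter, a midline bone without a spine) and both median fins, dorsal (DF) and anal (AF), and they entered the fit and served as context. The 6 libraries held 26357373 to 33718161 counts each. Only the 47 *Hox* genes carry names, so the dissected tissue could not be checked against markers of bone, skin, muscle or nerve.

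*Hox* genes encode homeodomain transcription factors that lie in clusters. In vertebrates, genes at one end of a cluster are generally expressed further towards the head and genes at the other end further towards the tail, and the combination present at a level of the body helps to set the form of the skeleton there. Genes of one number, such as group 11, are copies in different clusters, and teleost fish carry extra clusters after a genome duplication. *HOXDB* lies on chromosome 6 in the authors' *Apeltes* assembly and holds *HOXD11B* (chr6:16016955-16021639), *HOXD9B* (chr6:16025019-16029400) and *HOXD4B* (chr6:16032884-16045602), all on the plus strand.

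The fry were typed at *HOXDB* with the markers AQ-HOXDB_6 and AQ-HOXDB_7. Their primers are shown because they read the genotype that all 6 libraries share and because both markers start between *HOXD11B* and *HOXD9B*, at positions 16021998 and 16022048 of that chromosome, which is 359 and 409 bp past the end of *HOXD11B*. The primers run 5′ to 3′, F for forward and R for reverse.
AQ-HOXDB_6F: cagctgctcttaatgtcgcc
AQ-HOXDB_6R: caaagagggagagcagacgg
AQ-HOXDB_7F: gctgtgacttgtttcaaatgcc
AQ-HOXDB_7R: taagtggctcgcgtttaccg

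The first question was how many gene models separate the foremost from the hindmost spine. Of 21134 gene models with enough reads to test, 306 passed an adjusted p of 0.05 (1.45%), 221 higher in DSL (1.05%) and 85 lower (0.402%). The test was edgeR's quasi-likelihood F test on counts with tissue and fish as terms and Benjamini-Hochberg adjustment over all tested gene models, and all adjusted p-values below come from it. *Hox* genes made up 27 of the 306, which is 71.1% of the 38 *Hox* genes tested, and of the other gene models 1.32% passed. Among the *Hox* genes 15 were higher and 12 lower in DSL. The 10 gene models with the lowest p included 8 *Hox* genes. The median log2 difference was 0.81 among the higher and -0.97 among the lower gene models, against -0.02 over all tested. In bulk tissue, fewer cells of a type and less RNA per cell cannot be told apart.

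Differences above 2 on the log2 scale were found in 32 higher gene models, 10 of them *Hox* genes, and in 5 lower ones. All 306 moved the same way in 3 of 3 fish, as did 32.3% of all tested gene models. In 234 of the 306 the 3 libraries of one spine all lay above the 3 of the other, which held for 7.54% of all tested, and the 27 *Hox* genes were among these 234. The choice of the 306 by a test on these same libraries raises both counts by itself. Fish as a term mattered: without this block the tests called 44 gene models (0.208%), all of them among the 306, with 36 in the direction of DSL and 16 from the *Hox* list. The count also rested on each fish, with 141, 113 and 151 gene models without replicates 1, 2 and 3. It was 196 without DS1 replicate 1, and 163, 171 and 190 without DSL replicates 1, 2 and 3. With the DS1 and DSL libraries fitted alone it was 213, of which 174 were among the 306.

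**Figure D1:**
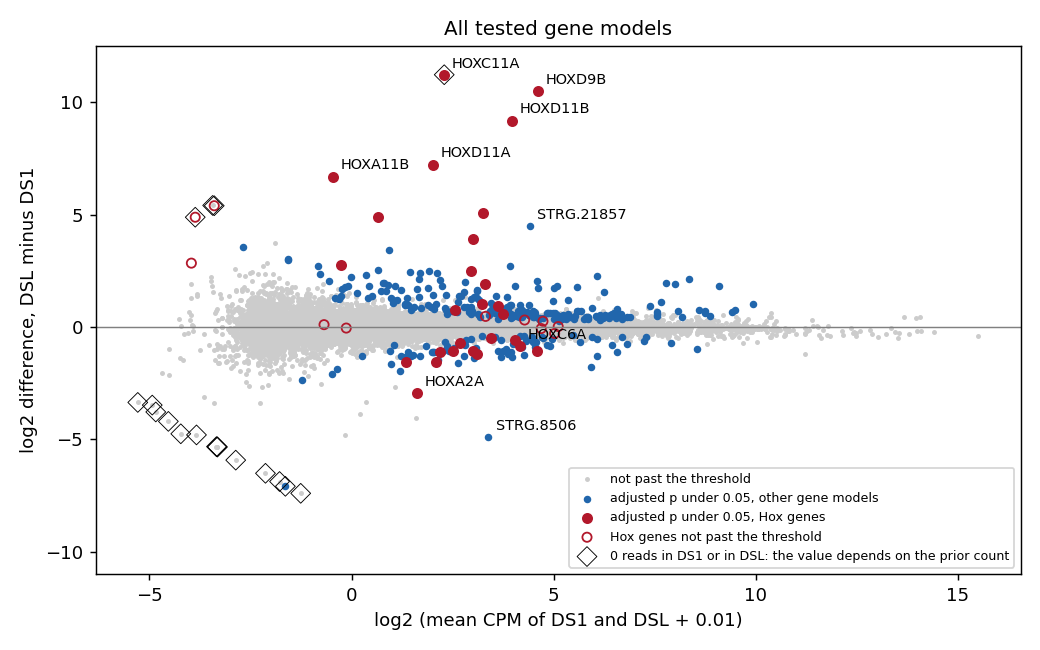
Log2 difference of DSL minus DS1 (vertical axis, edgeR fit with tissue and fish) against mean abundance (horizontal axis, log2 of CPM + 0.01) for the 21134 tested gene models; filled points passed an adjusted p of 0.05 and open diamonds had 0 reads in one spine, so that their value depends on the prior count. *HOXD9B* and *HOXD11B* stand highest among the genes with reads in both spines, and the 206 higher models outside the *Hox* list mostly lie within 2 log2 units of 0.

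Among the tested gene models with reads in both spines, *HOXD9B* and *HOXD11B* had the largest increases. *HOXD9B* was measured at 0.0833, 0 and 0 CPM (counts relative to the scaled library total) in DS1 of replicates 1, 2 and 3 and at 55.2, 46.3 and 45.4 CPM in DSL. It was thus near 0 in each first spine and among the abundant *Hox* genes in each last spine. The log2 difference was 10.48 (adjusted p 9.56e-15). DS1 held 3 reads and DSL 4555, a ratio of 1597 with a 95% interval of 546 to 7746 that covers counting error only. All 3 reads came from replicate 1, and without that fish the ratio was at least 953, taken against a floor of 3 counts over DS1, and the fitted log2 difference of 13.44 depends on the prior count. Without replicate 2 the ratio was 1059.

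*HOXD11B* was measured at 0.111, 0 and 0.0361 CPM in DS1 and at 35.6, 28.7 and 29.6 CPM in DSL. The spines did not overlap, and the 5 reads of DS1 stood against 2914 in DSL, a ratio of 613 (95% counting interval 262 to 1889). The log2 difference was 9.17 (adjusted p 3.42e-13). Without replicate 1, which held 4 of the 5 reads, the ratio was 1821 and the fitted log2 difference 10.50. *HOXD4B*, the group 4 gene of the cluster, was present in both spines, at 1.91, 2.48 and 2.67 CPM in DS1 and 13.9, 14.2 and 11.6 CPM in DSL. Its increase was 2.49 ± 0.191 log2 units (± approximate SE, adjusted p 6.44e-08). Since it overlaps another gene model on its strand, its count is less certain.

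The other clusters held further genes of groups 9 to 11 that were higher in DSL. In the mouse, group 10 genes suppress ribs on lumbar vertebrae and group 11 genes shape the sacral vertebrae and the forearm. *HOXC11A* (chr12:10239775-10242780) had 0 reads in all 3 DS1 libraries and 12.1, 8.52 and 8.68 CPM in DSL. With 906 reads in DSL it was at least 318-fold higher there, against a floor of 3 counts over DS1, and at least 179-fold without replicate 1. Its neighbour *HOXC10A* (chr12:10248576-10253967) was measured at 1.03, 0.404 and 0.216 CPM in DS1 and 24.3, 17.6 and 13.9 CPM in DSL. *HOXC10A* was therefore detected in every first spine at a small part of its level in the last spine, and rose by 5.06 ± 0.257 log2 units (adjusted p 7.50e-11). *HOXC9A*, next in the cluster, rose less, by 0.93 ± 0.149 (adjusted p 0.00136). Its call was lost without the fish block (adjusted p 0.124) and without replicate 2 (0.0602).

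In *HOXDA* 5 of 6 tested genes were higher in DSL, and the difference grew along the cluster from group 4 to group 11. *HOXD11A* (chr16:9102274-9106414) was measured at 0.0833, 0.0577 and 0 CPM in DS1 and 10.1, 8.11 and 6.08 CPM in DSL. Its 5 reads in DS1 against 745 in DSL gave a ratio of 157 (95% counting interval 66.8 to 484), and the log2 difference was 7.22 (adjusted p 1.32e-09). *HOXD10A* (chr16:9099741-9101818) was measured at 1.55, 0.548 and 0.937 CPM in DS1 and 18.5, 13.3 and 13.6 CPM in DSL. Both genes were apart between the spines in every fish. *HOXD10A* rose by 3.93 ± 0.247 (adjusted p 2.02e-09), *HOXD9A* by 1.93 ± 0.169 (adjusted p 5.37e-07), *HOXD3A* by 0.75 ± 0.165 (adjusted p 0.0204) and *HOXD4A* by 0.56 ± 0.113 (adjusted p 0.0109). *HOXD9A* and *HOXD10A* each overlap a gene model on the opposite strand.

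The last 2 calls were weak. Without the fish block the adjusted p was 0.138 for *HOXD3A* and 0.121 for *HOXD4A*. *HOXD4A* also lost its call without replicate 1 (0.216), replicate 3 (0.0859), DS1 replicate 1 (0.0676) or DSL replicate 1 (0.0849). *HOXD3A* lost it without replicate 1 (0.236), replicate 2 (0.242), DS1 replicate 1 (0.106) or 2 (0.1005), or DSL replicate 1 (0.105) or 2 (0.1402). Both lost it when DS1 and DSL were fitted alone (0.0576 for *HOXD4A* and 0.0962 for *HOXD3A*).

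*HOXAB* on chromosome 20 showed the same direction at lower levels. *HOXA10B* (chr20:9579690-9583732) was measured at 0.111, 0.0577 and 0.144 CPM in DS1 and 2.65, 2.83 and 3.54 CPM in DSL, with 10 and 284 reads, a ratio of 29.9 (95% counting interval 16.0 to 63.0). *HOXA11B* had 1 read in DS1, from replicate 2, and 137 in DSL, where it reached 0.954, 1.32 and 2.02 CPM. Its ratio of 144 has a counting interval of 25.4 to 5732. It was 81.0 without replicate 3 and at least 32.6 without replicate 2, where DS1 had no read. *HOXA9B* rose by 2.75 ± 0.379 (adjusted p 0.000305), from 0.111, 0.173 and 0.361 CPM to 1.87, 0.965 and 1.46 CPM. All 3 genes were higher in DSL in every fish without overlap, at a few CPM or less. *HOXA2B*, the anterior member, had 59 reads in DS1 and 60 in DSL, and its difference of 0.10 ± 0.387 did not pass (adjusted p 0.951).

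Not every posterior gene differed. Across clusters, groups 10 to 13 had 13 tested genes, 7 higher and none lower in DSL, with a median log2 difference of 4.88. That median is the value of *HOXA10B*. It depends in part on genes without reads in DS1, whose fitted differences rest on the prior count. The *HOXAA* genes on chromosome 10 were among the 6 of those 13 that did not pass. *HOXA10A* was measured at 45.4, 33.0 and 25.3 CPM in DS1 and 40.5, 32.4 and 30.9 CPM in DSL, a difference of 0.02 ± 0.116 (adjusted p 0.972). Its values overlapped fully, although its copy *HOXA10B* differed 29.9-fold. *HOXA11A* had a difference of 0.31 ± 0.133 (adjusted p 0.364) and *HOXA9A*, of group 9, one of -0.07 ± 0.129 (adjusted p 0.885).

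The most posterior genes had few reads in either spine. In zebrafish, group 13 genes are needed to form fin rays. *HOXA13A* was measured at 0.999, 1.12 and 0.577 CPM in DS1 and 1.48, 0.450 and 0.789 CPM in DSL, against a mean of 22.5 CPM in DF, and its difference of -0.05 ± 0.317 did not pass (adjusted p 0.972). *HOXA13B* had 0 reads in DS1 and 16 in DSL, *HOXC12A* 0 and 11, and *HOXD12A* 1 and 9. None of them passed (adjusted p 0.0848, 0.18 and 0.394). Of these 4 genes only *HOXA13A* had more than 16 reads in a spine, 91 in DS1 and 83 in DSL, and DESeq2 called 30 *Hox* genes in all against the 27 here. Another 9 *Hox* genes had too few reads to be tested, among them *HOXA1A* with 4 reads in DS1 and 0 in DSL, *HOXC3A* with 8 and 0, and *HOXC13A* with 0 and 1.

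*HOXBA* on chromosome 11 went the other way in every gene tested. All 7 tested genes, *HOXB2A* to *HOXB6A*, *HOXB8A* and *HOXB9A*, were lower in DSL, with a median log2 difference of -1.08. The cluster had 9 named genes. *HOXB1A* and *HOXB13A* had too few reads to be tested, and no gene model was named *HOXB7A*. *HOXB8A* (chr11:1468979-1475303) was measured at 12.4, 11.9 and 11.3 CPM in DS1 and 5.90, 4.92 and 4.82 CPM in DSL. *HOXB5A* was measured at 10.6, 10.8 and 11.2 CPM in DS1 and 6.32, 5.11 and 4.35 CPM in DSL. The levels in DS1 were close among the 3 fish, and every DSL library lay below every DS1 library. *HOXB8A* fell by 1.19 ± 0.153 (adjusted p 0.000132) and *HOXB5A* fell by 1.06 ± 0.153 (adjusted p 0.000482). *HOXB9A* was measured at 38.6, 35.6 and 23.9 CPM in DS1 and 16.3, 15.4 and 13.998 CPM in DSL and fell by 1.08 ± 0.162 (adjusted p 0.000678).

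The other 4 *HOXBA* genes fell by amounts between 0.57 for *HOXB6A* and 1.57 for *HOXB2A*. The counts of this cluster depended on the fish block more than those of the posterior genes did: without it only *HOXB8A* (adjusted p 0.00494) and *HOXB5A* (0.0377) passed, and the other adjusted p-values ran from 0.062 for *HOXB9A* to 0.209 for *HOXB6A*. Leaving out a fish ended the call of *HOXB9A* (without replicate 1, 0.0547), *HOXB4A* (replicate 3, 0.0691), *HOXB3A* (replicate 2, 0.116, and replicate 3, 0.0626) and *HOXB2A* (replicate 2, 0.0885, and replicate 3, 0.132). *HOXB2A* also lost it without DSL replicate 2 (0.0577) or 3 (0.0583). *HOXB6A* lost it without replicate 1 (0.205) or 2 (0.151), without DS1 replicate 1 (0.0651) or 2 (0.0895), and without DSL replicate 1 (0.0644), 2 (0.06) or 3 (0.0834). The direction was down in all of these.

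The anterior genes tested in *HOXAA* were lower in DSL as well, but those tested in *HOXCA*, *HOXDA* and *HOXDB* were not. In *HOXCA*, *HOXC3A* had too few reads to be tested, 8 in DS1 and 0 in DSL. *HOXA2A* (chr10:9754298-9755680), whose mouse counterpart patterns the skeleton of the second pharyngeal arch, was measured at 5.41, 4.67 and 6.27 CPM in DS1 and 0.848, 0.643 and 0.614 CPM in DSL. It fell by 2.95 ± 0.259 (adjusted p 5.37e-07), the largest decrease among the tested *Hox* genes, and it overlaps a gene model on the opposite strand. *HOXA5A*, with means of 6.36 CPM in DS1 and 2.12 CPM in DSL, fell by 1.57 ± 0.257 (adjusted p 0.00165). *HOXA3A* fell by 0.71 ± 0.158 (adjusted p 0.0213) and *HOXA4A* fell by 0.48 ± 0.117 (adjusted p 0.0415). *HOXA4A* lost its call when any single fish, DS1 library or DSL library was left out (adjusted p 0.0863 to 0.322) and without the fish block (0.598). *HOXA3A* lost it without the block (0.133), without any single fish (0.068 to 0.327), without DS1 replicate 1 (0.0682) or 2 (0.108), and without DSL replicate 1 (0.126) or 2 (0.137). With DS1 and DSL fitted alone neither passed (0.0642 for *HOXA3A* and 0.0962 for *HOXA4A*).

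In *HOXCA* the middle and anterior genes were mixed. *HOXC6A* (chr12:10270490-10281429), of a group that marks the thorax in the mouse, was measured at 24.0, 22.5 and 23.4 CPM in DS1 and 14.7, 12.1 and 11.98 CPM in DSL. The decrease was small but the fish varied little, and *HOXC6A* fell by 0.85 ± 0.0846 (adjusted p 3.80e-06), with the limit that it overlaps a gene model on the opposite strand. *HOXC4A* rose by 1.03 ± 0.146 (adjusted p 0.000409, 0.0771 without the fish block). *HOXC5A* (log2 difference 0.25 ± 0.129, adjusted p 0.471) and *HOXC8A* (-0.29 ± 0.119, adjusted p 0.337) did not pass. Over all clusters, groups 5 to 8 had 8 tested genes with 5 lower, none higher and a median of -0.71, while groups 2 to 4 had 11 with 4 higher and 6 lower and a median of -0.48.

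**Figure D2:**
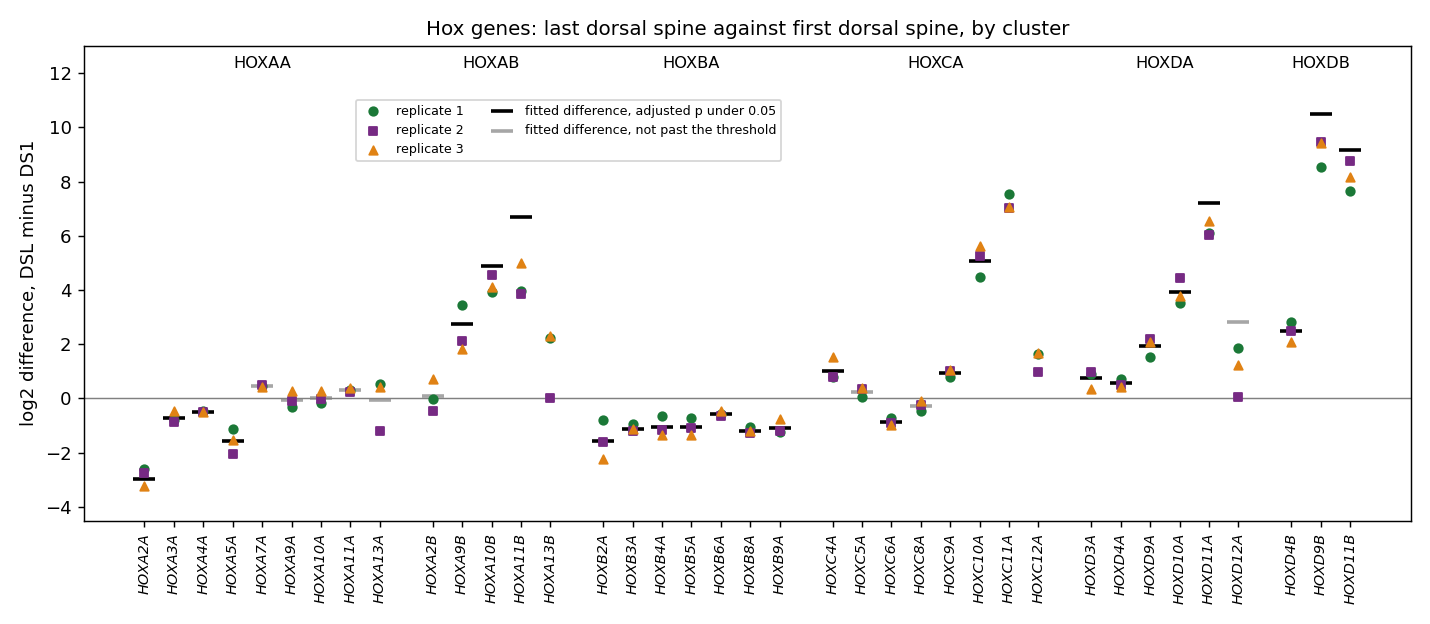
Log2 difference of DSL minus DS1 for the 38 tested *Hox* genes, ordered by cluster and paralogue group, with 1 point for each of the 3 fish (log2 CPM with a prior count of 2) and a bar for the edgeR fit, black where the adjusted p was under 0.05; genes with 0 reads in DS1 have no bar. The 7 *HOXBA* genes lie below 0, the 3 *HOXDB* genes above it, and the points of low genes lie under their bars since the prior count pulls them towards 0.

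Placed beside DS2 and DS3, these genes took different courses. *HOXD10A* had means of 1.01 CPM in DS1, 2.02 in DS2, 5.98 in DS3 and 15.1 in DSL, a rise at each step. *HOXC10A* did the same, with 0.549, 1.84, 4.53 and 18.6 CPM. *HOXC11A* instead had 0 CPM in DS1 and DS2 and 0.0124 CPM in DS3 before its 9.78 CPM in DSL. In *HOXBA*, *HOXB8A* and *HOXB5A* were nearly level until the last step. *HOXB8A* had 11.9, 11.8, 11.7 and 5.21 CPM and *HOXB5A* 10.9, 12.1, 12.1 and 5.26 CPM. *HOXC6A* had 23.3, 25.5, 23.1 and 12.9 CPM. *HOXA2A* declined throughout, with 5.45, 3.50, 2.59 and 0.702 CPM.

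**Figure D3:**
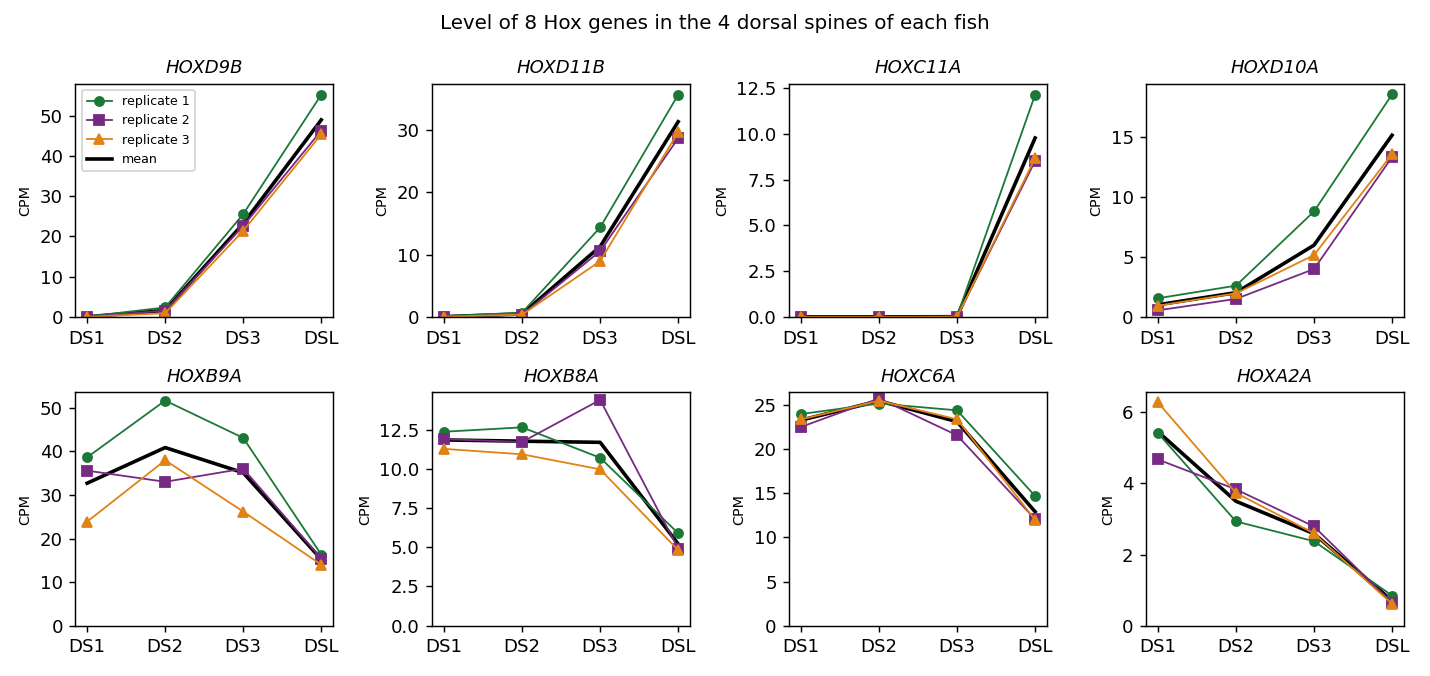
CPM of 8 *Hox* genes in DS1, DS2, DS3 and DSL (horizontal axis), with a coloured line for each of the 3 fish and a black line for the mean; each panel has its own linear axis from 0. *HOXC11A* is near 0 until DSL, *HOXD9B* and *HOXD11B* rise from DS3, and *HOXB9A*, *HOXB8A* and *HOXC6A* drop between DS3 and DSL.

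The makeup of *Hox* expression per length of transcript changed accordingly. In DS1 the highest mean levels were those of *HOXC8A* with 15.4 CPM per kb of exon, *HOXB6A* with 13.5 and *HOXA7A* with 11.9. In DSL they were those of *HOXD9B* with 16.8 CPM per kb, *HOXA7A* with 16.5 and *HOXC8A* with 12.6. *HOXD9B*, nearly absent from the first spine, was thus level with the most abundant *Hox* genes of the last spine. *HOXA7A* was measured at 10.05, 9.05 and 5.84 CPM in DS1 and 13.95, 12.9 and 7.89 CPM in DSL, and its difference of 0.47 ± 0.125 did not pass (adjusted p 0.0723). Summed over all 47 *Hox* genes, DS1 had 390, 331 and 287 CPM and DSL 512, 428 and 406 CPM, higher in DSL in 3 of 3 fish.

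Outside the *Hox* genes 206 gene models were higher and 73 lower in DSL, known only by their IDs. STRG.21857 (chr17:3426172-3439506) showed the largest increase among those that reached 5 CPM. It was measured at 1.08, 1.76 and 2.74 CPM in DS1 and 30.3, 48.1 and 44.0 CPM in DSL, and rose by 4.49 ± 0.177 (adjusted p 7.79e-13). The spines were far apart in each fish. It had 20.1 CPM in Pter and 398 and 456 CPM in DF and AF, so that DSL lay well under the fins. STRG.16169 (chr12:10642263-10653633) was instead highest in DSL of all 7 tissues, at 17.9, 29.1 and 23.0 CPM in DS1 and 115, 122 and 96.6 CPM in DSL. It rose by 2.25 ± 0.194 (adjusted p 4.61e-07), and its means climbed through 38.4 CPM in DS2 and 47.7 in DS3.

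The other increases of this size were STRG.25275 (chr19:16265638-16269422, log2 difference 2.70 ± 0.324), STRG.18149 (chr13:18330315-18332579, 2.50 ± 0.304), STRG.15076 (chr11:11504071-11507709, 2.41 ± 0.270) and STRG.28675 (an unplaced scaffold, 2.39 ± 0.302), each in 3 of 3 fish with adjusted p of 5.80e-05, 6.83e-05, 2.39e-05 and 0.000113. STRG.18149 and STRG.28675 had nearly the same profile. Their means were 1.13 and 1.38 CPM in DS1, 6.38 and 7.25 CPM in DSL and 0.227 and 0.283 CPM in Pter. Whether the counting split reads between similar sequences at these 2 places was not tested. Without the fish block the adjusted p was 0.136 for STRG.25275, 0.175 for STRG.18149 and 0.109 for STRG.28675.

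Among the decreases STRG.8506 (chr7:1619187-1626220) was the largest of those above 5 CPM. It was measured at 26.7, 20.96 and 13.1 CPM in DS1 and 0.283, 1.09 and 0.585 CPM in DSL, and fell by 4.89 ± 0.298 (adjusted p 1.32e-09). The decline was gradual, with means of 13.6 CPM in DS2 and 5.94 in DS3, and Pter, DF and AF were also low at 1.21, 0.835 and 0.437 CPM. STRG.7048 (chr5:11246337-11247686) was measured at 50.0, 56.8 and 182 CPM in DS1 and 30.8, 15.9 and 30.7 CPM in DSL. Its replicate 3 stood far above the others in DS1. It fell by 1.80 ± 0.269 (adjusted p 0.000675, 0.105 without the fish block).

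STRG.22799, STRG.15990, STRG.14252 and STRG.12028 fell by 1.59, 1.46, 1.36 and 1.35 on the log2 scale. In STRG.22799 (chr17:16510951-16540652) DS1 was at 6.08, 15.9 and 6.02 CPM and DSL at 2.61, 4.66 and 1.84 CPM, with replicate 2 above the other fish in both spines. STRG.12028 (chr9:6685793-6690828) was highest in DS1, with a mean of 22.4 CPM against 8.91 in DS2, 6.19 in DS3 and 8.85 in DSL. Its call (adjusted p 0.0355) was lost under DESeq2 (0.0875), without replicate 2 (0.2201) or 3 (0.117), and without any single DS1 or DSL library (0.0501 to 0.184). STRG.15990 (chr12:8374640-8380918, adjusted p 0.00111) lost its call without replicate 2 (0.0594). Without the block the adjusted p was 1 for STRG.22799 and STRG.12028, 0.699 for STRG.15990 and 0.133 for STRG.14252.

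**Figure D4:**
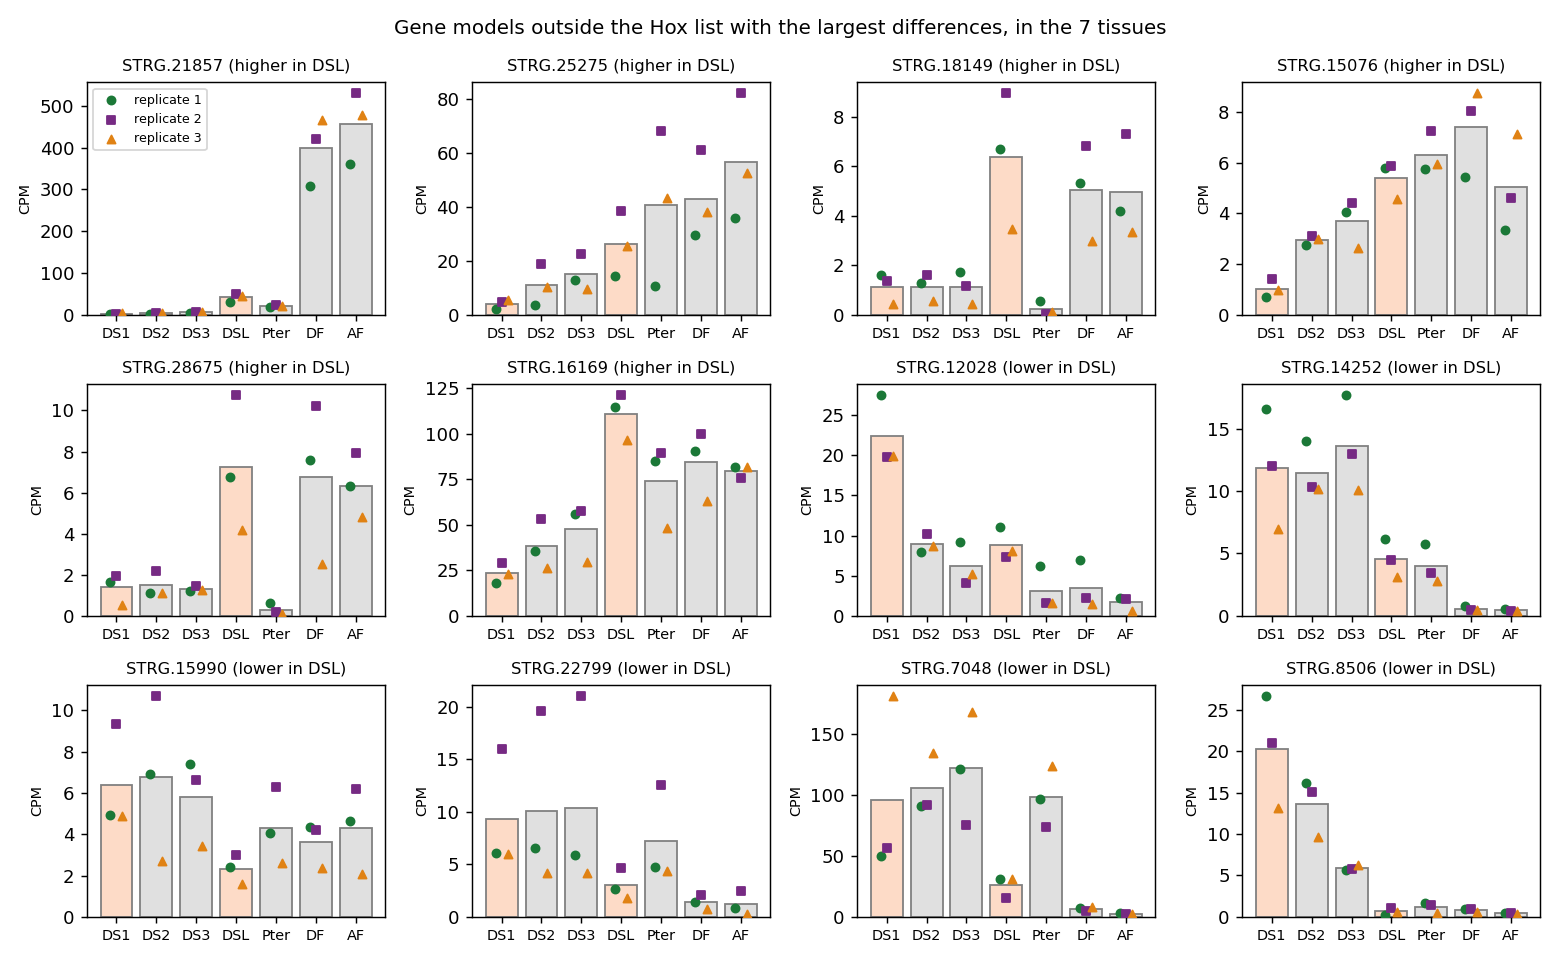
CPM of the 6 higher and 6 lower gene models named outside the *Hox* list in DS1, DS2, DS3, DSL, Pter, DF and AF, with bars for the mean of 3 fish, points for single fish and DS1 and DSL shaded; each panel has its own linear axis from 0. STRG.21857 reaches about 400 CPM in the fins, and STRG.8506 falls from DS1 to DSL in every fish.

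Gene models beside the *Hox* clusters were also looked at. Within 100000 bp of a *Hox* gene 87 other gene models were tested and 5 passed, 2 higher and 3 lower, which is 5.75% against 1.45% of all tested. STRG.14252 (chr11:1501341-1516629) starts 9396 bp past *HOXB9A* and was measured at 16.6, 12.02 and 6.96 CPM in DS1 and 6.18, 4.44 and 3.10 CPM in DSL. It fell by 1.36 ± 0.141 (adjusted p 7.79e-06), and in each fish DSL lay below DS1. STRG.14246 (chr11:1444066-1455943), between *HOXB5A* and *HOXB6A*, fell by 0.82 ± 0.156 (adjusted p 0.0064), although the spines overlapped. STRG.13717 (chr10:9740720-9748292), just outside the anterior end of *HOXAA*, fell by 1.33 ± 0.284 (adjusted p 0.016).

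The 2 that were higher lie on the strand opposite to their *Hox* neighbours. STRG.21006 (chr16:9097473-9102163) lies across *HOXD9A* and *HOXD10A* on the other strand and rose by 2.06 ± 0.406 (adjusted p 0.00909), at about 1 CPM in DSL. Reads of a gene and its antisense partner cannot be told apart if the counting ignored strand, which the sources used here do not state. STRG.13727 (chr10:9810373-9814482), between *HOXA11A* and *HOXA13A* without overlapping either, had means of 0.465 CPM in DS1 and 1.13 CPM in DSL (adjusted p 0.05, 0.0687 to 0.355 without any single fish, DS1 library or DSL replicates 1 or 2). None of the 5 passed without the fish block. STRG.14246 also lost its call without replicate 2, DS1 replicate 1 or DSL replicate 2 or 3 (adjusted p 0.0504 to 0.152), STRG.13717 without any single fish, DS1 replicate 2 or 3 or DSL replicate 1 or 2 (0.0618 to 0.199), and STRG.21006 without any single fish, DS1 replicate 2 or DSL replicate 3 (0.0563 to 0.1302). With DS1 and DSL fitted alone the adjusted p was 0.0576 for STRG.21006 and 0.171 for STRG.13727, which also missed the threshold with the 4 spines alone (0.202) and under limma-voom (0.0791). Leaving out a fish left 2, 1 and 2 of them in the order of the replicates. Leaving out DS1 replicate 2 or DSL replicate 2 left 2, and leaving out DS1 replicate 3 or DSL replicate 1 left 3. Without DS1 replicate 1, 4 gene models near *Hox* genes passed, not all of them among these 5.

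The spines between them gave a second reading from other libraries of the same fish. Between DS2 and DS3 4 gene models passed (0.0189%), all *Hox* genes and all among the 306, namely *HOXD9B*, *HOXD11B*, *HOXD4B* and *HOXD10A*. Their count was 17 without replicate 1. Of the 221 gene models higher in DSL than in DS1, 188 were higher in DS3 than in DS2 (85.1%), where 50.9% of all tested gene models had that sign. Of the 85 lower ones, 42 were lower in DS3 (49.4%). The median log2 difference of DS3 minus DS2 was 0.18 over the 221 and 0.00 over the 85, against 0.00 over all tested. All 15 higher *Hox* genes and 9 of the 12 lower ones kept their sign. For *HOXC11A* that sign rested on 0.0371 CPM in DS3 of replicate 1, with 0 CPM in every other DS2 and DS3 library. At an unadjusted p under 0.05, 67 of the 306 differed between DS2 and DS3 (21.9%), 57 of them in the same direction, beside 6.28% of all tested.

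**Figure D5:**
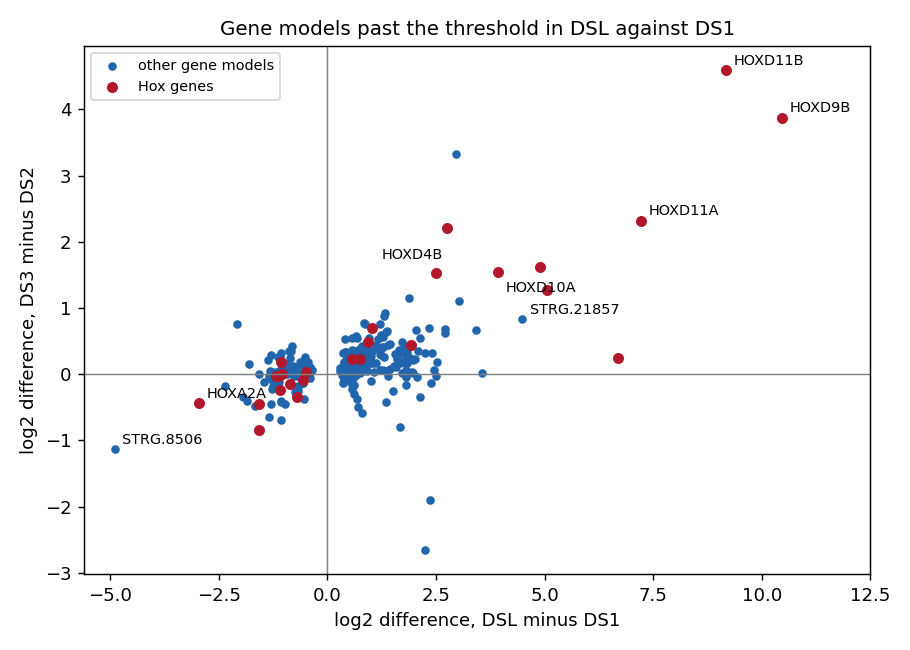
Log2 difference of DS3 minus DS2 (vertical axis) against DSL minus DS1 (horizontal axis), both from the edgeR fit with tissue and fish, for the gene models past an adjusted p of 0.05 in DSL minus DS1 that had reads in both spines. Most points on the right lie above 0, as 188 of 221 higher models did, while those on the left fall on both sides.

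Over the 7 tissues, the 221 higher gene models had their highest mean in DSL in 118 cases, a count that their choice as higher in DSL raises by itself. The highest mean was in Pter for 36 of the 221, in AF for 34, in DF for 28 and in DS3 for 5. Of all tested gene models 19.0%, 18.6%, 15.9% and 12.47% had their highest mean in those tissues. The 85 lower gene models had their lowest mean in AF for 35 and in DSL for 31, which their choice again raises. The lowest mean was in DF for 14 and in Pter for 3. Of all tested gene models 15.4%, 13.5% and 25.5% had their lowest mean in AF, DF and Pter. Since DSL lies next to the dorsal fin, the level of genes far higher in the fin than in DS2 was set beside these results. A list chosen with these values in view holds the 14 gene models with at least 10 CPM in DF and 20 times as much there as in DS2. Summed over the list, DS1 libraries had 30.4 to 59.6 CPM, DSL libraries 90.3 to 112 CPM and DF libraries 1384 to 1762 CPM.

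STRG.21857 made up much of that sum in DSL. Without STRG.21857 the sum in replicates 1, 2 and 3 was 58.5, 28.7 and 33.7 CPM in DS1. In DSL it was 59.97, 45.9 and 67.8 CPM, higher in each fish but only slightly so in replicate 1. Of the 14, 6 passed as higher in DSL (*HOXC11A*, *HOXD11A*, *HOXA10B*, STRG.21857, STRG.17968 and STRG.13727), 1 passed as lower (STRG.13911, from a mean of 19.3 to 8.84 CPM) and 7 did not pass. STRG.13911 was measured at 33.8, 12.4 and 11.8 CPM in DS1 and 9.08, 8.36 and 9.09 CPM in DSL (adjusted p 0.0464). Its replicate 1 stood far above the other fish in DS1. Over all tested gene models 1.05% passed as higher and 0.402% as lower, and of the tested *Hox* genes 71.1% passed in either direction. In DSL the 14 stood at a median of 5.35% of their DF level, and in DS1 at 1.75%. The list was chosen to be low in DS2, the spine next to DS1, which by itself holds the DS1 value down. It also takes in genes that rise along the spines towards the fin, such as *HOXD11A*. The list holds 5 *Hox* genes, and in DSL *HOXD11A* stood at 72.8% of its DF mean, *HOXA10B* at 29.1%, *HOXC11A* at 26.1%, *HOXA13A* at 4.04% and *HOXD12A* at 0.534%. The summed group 13 genes ranged from 0.577 to 1.12 CPM in DS1, 0.450 to 1.73 CPM in DSL and 28.7 to 34.4 CPM in DF. The means of *HOXD9B*, *HOXD11B* and STRG.16169 were higher in DSL than in DF. The part of fin tissue in the results was not tested.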

How the data were processed

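RNA was sequenced from 7 tissues of 3 fish. The deposited table holds the authors' read counts, unnormalized whole numbers per gene model and library; 85 columns of other fish were not used. The gene models were built with StringTie on the authors' own assembly, ordered along *Gasterosteus* chromosomes, and *Hox* genes were named by BLAST, which leaves 31485 models with an ID only. The methods describe STAR and featureCounts for *Gasterosteus* and call the *Apeltes* protocol similar; the submitters' processing notes list cutadapt 2.4, FastQC 0.11.9 and Subread 2.0.1. Whether counting used strand is not given in the sources used here.

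All 21 libraries were fitted with edgeR 4.0.16 in R 4.3.3: filterByExpr left 21134 gene models and set aside 0.0403% of counts, TMM scaled the libraries, and quasi-likelihood F tests (two-sided, tissue and fish as terms) were adjusted by Benjamini-Hochberg at 0.05. At an unadjusted p under 0.05, 2453 gene models differed. CPM uses TMM-scaled totals, errors (SE) are approximate, the log2 difference over √F, and differences per fish used a prior count of 2. At very few reads this SE falls short of the counting error, so none is given for *HOXD9B*, *HOXD11B* and *HOXD11A*. Their p-values rest on the same F and shifted widely between settings. The adjusted p of *HOXD9B* was 3.17e-07 in edgeR with DS1 and DSL fitted alone. Under limma-voom it was 3.40e-06 for *HOXD11B* and 1.96e-05 for *HOXD11A*. For genes with at most 10 reads in a spine, pooled reads gave ratios with 95% exact binomial intervals, a spine without reads being set to 3 counts over the group.

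Replicate numbers are fish, so they pair the libraries. After removing tissue means, 63 pairs of libraries of one fish correlated at 0.52 or more (median 0.62), and 0.573, 0.687 and 0.651 for DS1 with DSL. Within DS1 and within DSL no libraries were duplicates (chi-square per degree of freedom 27.0 to 125). Other pairs of libraries were not compared in this way. Whether fish were of 1 clutch is not given. The p-values rest on the spread left in the 21 libraries of these 3 fish once tissue and fish are fitted.

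Named were all *HOXDB* genes, all *Hox* genes past the threshold, up to 6 rising and 6 falling other gene models with the largest log2 change among those past the threshold with 1 direction in all 3 fish and at least 5 CPM on average in the higher spine, and gene models past the threshold within 100000 bp of a *Hox* gene. Others were named after their values were seen. The members and lists were chosen with earlier results of these data known. Alternatives were no fish block, RLE factors, DESeq2 1.42.0, limma-voom (limma 3.58.1), no filter, 1 CPM in at least 3 libraries, DS1 and DSL alone, the 4 spines alone, each fish or DS1 or DSL library left out, and distances of 50000 and 200000 bp. Tested on simulated data with 200 changed among 20968 gene models, the procedure recovered 80% at a log2 change of 1 and 98% at 2, and 6.81% of its calls were false. The changed gene models were drawn from those with higher mean counts, so these recovery rates do not cover gene models with few reads. The simulated spread came from the same fit, so the simulation cannot show whether the fish block was right.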

Additional observations from a re-analysis of the deposited data

How the results depend on the processing

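The 306 gene models and 27 *Hox* genes that differed between DSL and DS1 became 44 and 16 without the replicate block of fish, where the 4 between DS2 and DS3 became 3 and the 5 beside *Hox* genes became 0. With DS1 and DSL fitted alone, 213 of 19841 tested gene models passed, 174 of them among the 306. Of 35 *Hox* genes tested there, 23 passed. DESeq2 gave 489 gene models, and 29 between DS2 and DS3. That count was 38 if low counts were not filtered and 9 with the 4 spines fitted alone. Beside *Hox* genes 3 passed with DS1 and DSL fitted alone and 8 of 183 within 200000 bp. The causes were not tested. With a fish, a DS1 or a DSL library left out, the counts ran from 113 to 236 gene models, 20 to 26 *Hox* genes and 1 to 4 beside *Hox* genes, and between DS2 and DS3 from 3 to 17. Pooled ratios with a fish left out ran from 413 to 1821 for *HOXD11B*, 953 to 1191 for *HOXD9B*, 179 to 242 for *HOXC11A*, 128 to 220 for *HOXD11A*, 32.6 to 105 for *HOXA11B* and 25.0 to 33.3 for *HOXA10B*. All 3 values of *HOXC11A* and the lowest of *HOXD9B* and *HOXA11B* are lower bounds, with DS1 at 0 reads set to the floor of 3 counts. Of the 43 gene models named by rule, none turned direction in any of 17 settings, and 20 stayed past the threshold in all of them, 16 of which were *Hox* genes. Genes with under 20 reads in both spines, such as *HOXD12A*, rest on few counts. Whether depth or low expression sets this limit was not tested.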

Other observations

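Some gene models that differed between DSL and DS1 lay side by side. Neighbouring tested gene models that passed in the same direction formed 21 runs with 59 members, and 15 runs with 31 members held no *Hox* gene. The longest, from *HOXB2A* to STRG.14252 (chr11:1380544-1516629), held 9 gene models, all lower in DSL, 7 of them *HOXBA* genes. These runs were sought after the values were seen, and neighbours may be pieces of 1 gene, since the models were assembled from reads. Of all tested gene models 1.45% passed, and how many runs that rate gives by itself was not worked out.

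STRG.15140, STRG.15141 and STRG.15142 (chr11:12179490-12185716) were higher in DSL by 1.84 to 1.96 on the log2 scale. STRG.15141 was measured at 82.1, 101 and 70.3 CPM in DS1 and 220, 296 and 539 CPM in DSL. STRG.7206 (chr5:12535522-12536556) had a like pattern, with 220, 311 and 159 CPM in DS1 and 502, 800 and 1265 CPM in DSL, and its neighbour STRG.7207 rose by 1.81 ± 0.287. In both, replicate 3 was the lowest fish in DS1 and the highest in DSL, and DF was near the level of DS1, at 80.4 CPM for STRG.15141 and 223 CPM for STRG.7206.

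On chromosome 7, STRG.8501 and STRG.8502 (chr7:1565365-1570113) were higher in DSL, with mean levels of 0.459 and 0.406 CPM in DS1 and 2.66 and 2.16 CPM in DSL. The falling STRG.8506 starts 49073 bp further on, so gene models with opposite differences lay close together there. On chromosome 19, STRG.25272 (chr19:16240235-16243869) ends 21768 bp before STRG.25275 and rose by 2.05 ± 0.191, from 4.52, 13.203 and 10.1 CPM to 20.0, 59.5 and 36.7 CPM. Both had their lowest spine mean in DS1 and the highest in DSL.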
